A study of Mus musculus with 4 samples.

Results

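The miRNAs miR-680 to miR-721 were read on a miRNA array of wild type and Junb-/- mouse embryonic fibroblasts (MEFs), cultured cells of embryonic connective tissue. Members were taken by name alone, as every array entry numbered between miR-680 and miR-721, both included, with letters and arms kept and with the 2 star strands in this range, miR-708* and miR-712*, left out. This gave 41 of the 710 miRNAs of the array. The study compared 2 wild type with 2 Junb-/- MEF clones, with 1 single-colour array per clone. All 4 clones came from embryos of embryonic day 9.5 on a mixed C57BL/6 × 129/Sv background and had been immortalized by the 3T3 protocol, so they are cell lines and not primary cells. Each genotype rests on 2 lines. The sources used here do not say whether they came from separate embryos, so p-values measure only the spread between these lines. JUNB is a DNA-binding component of AP-1, and the comparison asks which miRNAs differ in its absence. The array does not measure Junb mRNA, so the knock-out was not checked here.

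A miRNA is cut from a hairpin in 2 steps. Drosha frees the hairpin from the primary transcript, exportin-5 carries it out of the nucleus and Dicer cuts out the arms, of which an Argonaute protein keeps 1. Target mRNAs are then recognised mainly through the seed, bases 2 to 8 of the mature strand. The names miR-680 to miR-721 were given to small RNAs sequenced from mouse embryos. Several were later questioned as miRNAs, because the sequence lies in a more abundant RNA or because the hairpin is weak. miR-720 is a fragment of a threonine tRNA and miR-712 comes from a spacer of the ribosomal RNA precursor. These origins are background and not results of these arrays.

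Of the 41 members, 26 had a single RefSeq mature sequence (GRCm38.p6) under exactly the name on the array. For 5 more, miR-698, miR-700, miR-701, miR-702 and miR-708, RefSeq lists both arms while the array names none, so neither was assigned. No sequence was assigned to miR-684, miR-685, miR-689, miR-694, miR-696, miR-709, miR-712, miR-714, miR-715 and miR-720. The sequences below are those of some of the members that stood at the ends of the range of signal, spot spread or genotype difference. The seed is in capitals.
miR-713: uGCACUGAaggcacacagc
miR-705: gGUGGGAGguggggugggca
miR-681: cAGCCUCGcuggcaggcagcu
miR-719: aUCUCGGCuacagaaaaauguu
miR-682: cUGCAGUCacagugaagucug
miR-687: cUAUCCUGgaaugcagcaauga
miR-706: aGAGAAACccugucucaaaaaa
miR-691: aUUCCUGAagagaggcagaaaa
miR-704: aGACAUGUgcucugcuccuag
miR-697: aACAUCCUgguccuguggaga
The 26 sequences carried 26 distinct seeds, so no seed was shared between members. Among these, miR-705 is the richest in G, with 70.0% G and 14 G in 20 bases. miR-706 holds a run of A at its 3′ end, and its letters are those of the B1 repeat, an abundant mobile element of the mouse genome (background knowledge).

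Seeds were shared with few other miRNAs. Of the 26 members, 3 (miR-705, miR-721 and miR-686) shared a seed with another RefSeq miRNA, and only miR-721 did so with an entry of the array. Its seed is that of the miR-130/301 family, as the pair of sequences shows, with the seed in capitals.
miR-721: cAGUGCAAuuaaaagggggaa
miR-130a-3p: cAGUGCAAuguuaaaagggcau
On the array, miR-130a, miR-130b and miR-301a are named without an arm. Their mean normalized log2 levels were 10.80, 10.12 and 9.003, and their log2 fold changes between the genotypes were 0.20, 0.07 and -0.35, none of which passed the test (adjusted p = 0.907, 0.965 and 0.814 from limma). The array also names miR-301b. The RefSeq sequences used here held no strand with this seed under its name, so it was not compared. The unassigned miR-708 carries, in its RefSeq arm miR-708-5p, the seed of miR-28a-5p.
miR-708-5p: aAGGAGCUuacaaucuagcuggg

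In base composition the members lay close to the other array miRNAs with a sequence found the same way. The median GC content was 51.2% (range 33.3% to 81.0%) in the 26 members and 52.3% in 172 others, and the median length was 21 and 22 bases. A mature strand that begins with U, the base Argonaute proteins are known to prefer, was seen in 2 of 26 members (7.69%), miR-713 and miR-688, and in 65 of the 172 others (37.8%). A run of 4 or more G was seen in 5 of 26 members (19.2%) and in 12 of 172 others (6.98%). These others are not a sample of the whole array, since names without an arm mostly matched no single sequence. All of these shares are descriptions without a test.

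The hairpins were folded in silico from the RefSeq sequences. A total of 31 hairpins belonged to 28 members, as miR-680, miR-683 and miR-692 had several gene copies with a sequence. Their predicted minimum free energy per base, which is more negative for a more stable fold, had a median of -0.327 kcal/mol (range -0.665 to -0.176), against -0.425 kcal/mol over 366 hairpins of other array miRNAs. Of the 31, 25 (80.6%) were less stable per base than that median of the others. More than 1 hairpin loop was predicted for 12 of 31 (38.7%) and for 18 of 366 (4.92%) of the others. The listed hairpins of the members were longer, with a median of 109 bases against 83, and the part of this length in the energy and loop values was not tested. The plot of folding energy shows both distributions.

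**Figure D1:**
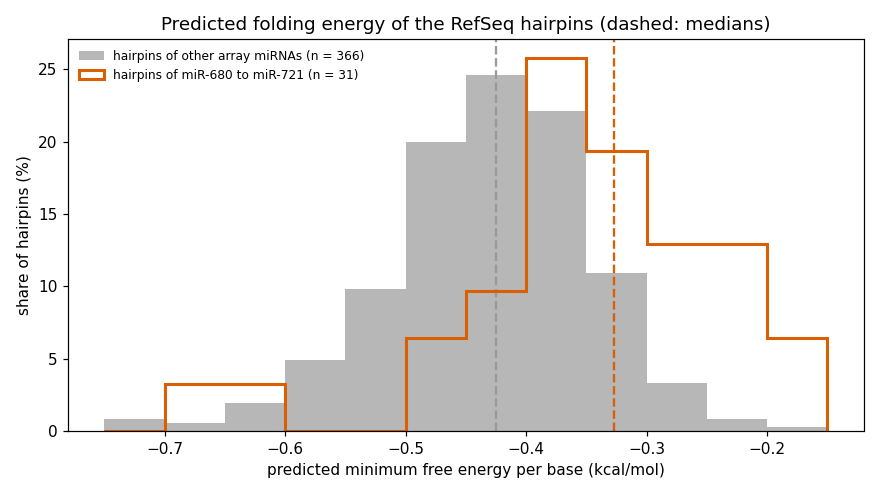
Predicted minimum free energy per base (x axis, kcal/mol) of the RefSeq hairpins of miR-680 to miR-721 (orange outline, n = 31) and of other array miRNAs (grey, n = 366), as the share of hairpins in each bin (y axis, %). Dashed lines are the medians, -0.327 for the members and -0.425 for the others.

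Single members differed widely in this measure. The most stable member hairpin was the hairpin of miR-693, whose gene lies within Xpo5, the gene of exportin-5 itself, with -0.665 kcal/mol per base and 1 loop. In it, 90.5% of the bases of miR-693-5p and 91.3% of those of miR-693-3p were paired with the opposite side. The hairpin of miR-713 had -0.327 kcal/mol per base and 3 loops, and only 15.8% of the mature bases were paired with 1 side. The least stable was that of miR-721, within the gene of the transcription factor Cux1, with -0.176 kcal/mol per base. The first 2 are printed to show the difference, with the mature strands in capitals. In that of miR-693 the strands face each other, and in that of miR-713 the single strand has no long partner.
Mir693: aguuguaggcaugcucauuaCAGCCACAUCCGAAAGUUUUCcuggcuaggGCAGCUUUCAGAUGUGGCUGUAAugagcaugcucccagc
Mir713: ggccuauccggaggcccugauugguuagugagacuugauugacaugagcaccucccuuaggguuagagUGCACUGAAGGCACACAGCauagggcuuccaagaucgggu

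Genes were found by name for 34 members in a RefSeq table of GRCm38, 39 genes in all, and 29 of them lay within the bounds of another gene on either strand, 26 within a protein-coding one. The array files name no genome build, so no coordinates are given. miR-708 lies within Tenm4, miR-711 within the collagen gene Col7a1, miR-702 within Plod3, a collagen-modifying enzyme, miR-687 within the tumour suppressor gene Rb1 and miR-709 within Rfx1. Some lay within pseudogenes. Mir692-2 and Mir692-3 were within Ftl2-ps and Ftl1-ps1, pseudogenes of the ferritin light chain, and Mir682 was within Gm4149. Mir713 was within Platr25, a non-coding RNA gene. For 4 members (miR-680, miR-683, miR-684 and miR-692) more than 1 gene copy was listed, and the array cannot tell the copies apart.

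The arrays carried 8 spots per miRNA, of which 5167 to 5361 of 5680 had a value on each array. Wild type clone 1 gave the dimmest array, with a median spot intensity of 33.6 against 84.0 to 110.1 on the other 3, and it takes part in every genotype difference below. Values below are normalized log2(intensity + 50), averaged over the spots of a miRNA. Member spots of intensity 0 lay at 5.64 to 5.68, the floor set by the offset. The lowest mean level of any miRNA was 6.07. Without a negative control no miRNA could be called present or absent. All 10 fibroblast miRNAs chosen as markers lay between percentiles 92.3 and 98.9 of the array, and the 13 markers of liver, neurons, muscle, blood, epithelium and pluripotent cells between percentiles 0.282 and 60.3. Probes differ in how brightly they report the same amount, so levels below are signals of a probe and do not rank the amounts of different miRNAs.

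Most members lay above the array median in mean signal, and a few probes were bright. Their mean level had a median of 7.24 (range 6.12 to 12.91) over 41 members and of 6.96 over all 710 miRNAs, and 28 of 41 lay above the median of the array. Without wild type clone 1 the excess of 0.28 over the array median was 0.16. Split at the quartiles of the array, 9 members lay below the lower quartile, 4 between it and the median, 19 between the median and the upper quartile and 9 above the upper quartile. The members were thus most crowded just above the median. For 5 members (12.2%) the median intensity of the spots was below the offset of 50 on every array, beside 20.6% of all miRNAs. For 15 members it was above the offset on every array. Spots of exactly 0 made up 0.654% to 4.68% of the members' spots and 2.17% to 8.81% of all spots.

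**Figure D2:**
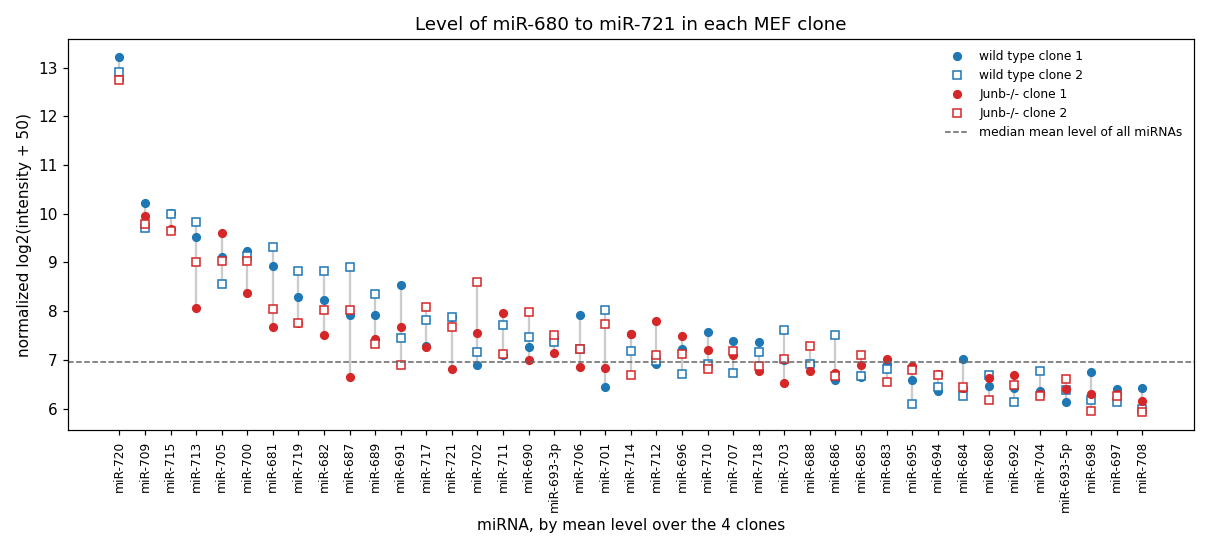
Normalized log2(intensity + 50) (y axis) of each of the 41 members (x axis, by mean level) in wild type clones 1 and 2 (blue) and Junb-/- clones 1 and 2 (red), each point being 1 array. The dashed line is the median mean level of all 710 miRNAs, 6.96. miR-720 stands alone at 12.74 to 13.22 and 13 members lie below the dashed line by their mean.

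The brightest member was miR-720, the tRNA fragment. Its spots had a median intensity of 13114 in wild type clone 1, 8429.8 in wild type clone 2, 5365 in Junb-/- clone 1 and 9105 in Junb-/- clone 2. Only 4 of the 710 miRNAs had a higher mean level. On the normalized log2 scale it was at 13.22 and 12.91 in wild type and at 12.77 and 12.74 in Junb-/- MEFs, and the Junb-/- clones were the lower ones without overlap. The log2 fold change was -0.31 (standard error 0.35, 95% interval -1.07 to 0.44, adjusted p = 0.840 from limma), which did not pass the test. It was -0.16 without wild type clone 1, and over all alternatives it ran from -0.96 to -0.16. With the values normalized by the authors the genotypes overlapped, at 15.13 and 13.33 in wild type, against 13.07 and 13.48 in Junb-/- MEFs. Whether this signal came from the fragment or from the parent tRNA was not tested.

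The ribosomal spacer product miR-712 lay near the middle of the members in signal. Its level was 6.92 and 6.98 in wild type, against 7.80 and 7.10 in Junb-/- MEFs. The Junb-/- clones were above the wild type clones without overlap, while only 4 of its 7 spots with a value in both genotypes went that way. The difference was 0.50 on the log2 scale (standard error 0.37, limma adjusted p = 0.738), and 0.15 without Junb-/- clone 1. With the values normalized by the authors the genotypes overlapped, at 6.75 and 7.51 in wild type, against 8.36 and 6.50 in Junb-/- MEFs. In mouse endothelium miR-712 is known to respond to disturbed blood flow.

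Next in signal came miR-709 and miR-715. miR-709, known from mouse cells as a nuclear miRNA that acts on the primary transcript of miR-15a and miR-16-1, was at 10.21 and 9.71 in wild type and at 9.96 and 9.79 in Junb-/- MEFs. The genotypes overlapped, and the log2 fold change was -0.09 (95% interval -0.86 to 0.69, adjusted p = 0.960 from limma). miR-715 was at 10.01 and 9.98 in wild type and at 9.70 and 9.65 in Junb-/- MEFs. The normalized values of the clones of each genotype lay within 0.05 of each other. All 7 of its measured spots were lower in Junb-/- MEFs, but the log2 fold change of -0.32 (95% interval -1.07 to 0.42, adjusted p = 0.840 from limma) did not pass. The SD between its clones was 0.017 in wild type and 0.032 in Junb-/- MEFs, and the standard error from limma 0.35. limma weighs this spread together with a prior from all miRNAs, and the part of this prior in the outcome was not tested. With the values normalized by the authors miR-715 was at 11.22 and 10.32 in wild type, against 10.16 and 10.25. There the Junb-/- clones were still the lower ones, but the wild type clones lay further apart. Before normalization its median intensities overlapped, at 865.6 and 1035 in wild type, against 702.4 and 964.8. miR-705, a G-rich miRNA linked in mouse bone marrow stromal cells to the choice between bone and fat, was at 9.10 and 8.56 in wild type and at 9.60 and 9.03 in Junb-/- MEFs. Here the genotypes overlapped and the log2 fold change was 0.48 (95% interval -0.33 to 1.29, adjusted p = 0.738 from limma). It was 0.19 without Junb-/- clone 1 and 0.21 without wild type clone 2.

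At the dim end stood miR-708, miR-697, miR-698, miR-693-5p and miR-704, with mean levels of 6.12, 6.27, 6.30, 6.38 and 6.42. miR-708, induced by endoplasmic reticulum stress in mouse cells, had median spot intensities of 12.8 and 12.0 in wild type, against 19.1 and 12.8 in Junb-/- MEFs. Only 5 of the 710 miRNAs had a lower mean level. At such intensities the offset of 50 sets most of the value, so that its log2 fold change of -0.18 (95% interval -0.95 to 0.59) is bounded by the offset. Both arms of miR-693 were on the array. miR-693-3p was at 7.45 and 7.36 in wild type and at 7.15 and 7.50 in Junb-/- MEFs, and miR-693-5p at 6.13 and 6.38 in wild type and at 6.41 and 6.60 in Junb-/- MEFs. The log2 fold changes of the arms were -0.08 and 0.25, with intervals that both hold 0.

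Several members with a role reported in mouse cells lay in the middle of the range, and none differed by the test. miR-721, known from mouse Th17 cells in myocarditis, was at 7.88 in both wild type clones and at 6.81 and 7.67 in the Junb-/- clones, which gave a difference of -0.64 (log2, 95% interval -1.46 to 0.18, adjusted p = 0.649 from limma). It was -0.21 without Junb-/- clone 1. miR-690, carried by exosomes of mouse macrophages and linked to insulin sensitivity, was at 7.27 and 7.47 in wild type and at 7.00 and 7.99 in Junb-/- MEFs, and the Junb-/- clones enclosed the wild type clones. miR-696, which acts on Pgc-1α in mouse muscle, was at 7.23 and 6.72 in wild type and at 7.49 and 7.11 in Junb-/- MEFs. miR-711 was at 7.09 and 7.71 in wild type and at 7.95 and 7.13 in Junb-/- MEFs. miR-714, linked to calcium transporters in mouse vascular smooth muscle, was at 7.54 and 7.19 in wild type and at 7.53 and 6.69 in Junb-/- MEFs. For these last 4 the genotypes overlapped and the log2 fold changes ran from -0.25 to 0.33 (adjusted p = 0.840 to 0.941 from limma).

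No member passed the genotype test. Of all 710 miRNAs, 10 (1.41%) had an adjusted p under 0.05 from limma, 0.563% higher and 0.845% lower in Junb-/- MEFs, and of the 41 members 0 did. The lowest adjusted p among members was 0.149 for miR-681. At an unadjusted p under 0.05 there were 5 members (12.2%), 1 higher and 4 lower in Junb-/- MEFs, beside 10.4% of all miRNAs (5.35% higher and 5.07% lower). With the values normalized by the authors there were 2 higher and 0 lower. Of the alternatives, cyclic loess called miR-681 and miR-687, both lower, and a block for the clone number called miR-681, while the others called 0 members. For 11 members (26.8%) the Junb-/- clones were both below the wild type pair, and for 7 (17.1%) both above it, beside 17.3% and 21.3% of all miRNAs. In either direction this is 18 members (43.9%) beside 38.6%. The median log2 fold change of the members was -0.18, with 25 of 41 below 0, while that of all miRNAs was 0.04, with 45.6% below 0. Without wild type clone 1 the members' median was -0.075, and with scaling to the 75th percentile it was -0.48, where the median of all miRNAs moved to -0.20. Relative to the median of all miRNAs it lay between -0.35 and -0.14 under all settings tried.

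**Figure D3:**
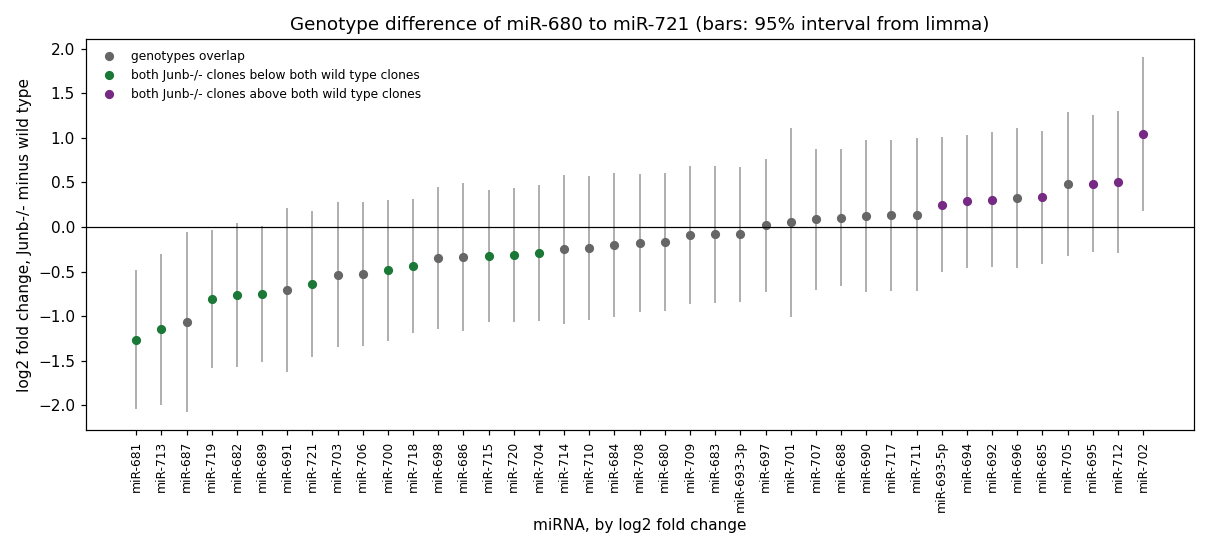
log2 fold change of Junb-/- minus wild type MEFs (y axis) for each of the 41 members (x axis, by value), with 95% intervals from limma as bars. Green points are the 11 members with both Junb-/- clones below both wild type clones and purple points the 7 with both above. Every interval that lies wholly on 1 side of 0 (4 below, 1 above) belongs to a member whose adjusted p was 0.149 or higher.

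Among the members above the upper quartile of level most differences lay below 0. There, 8 of 9 members had a log2 fold change below 0, with a median of -0.49, while of the 169 others there 53.3% were below 0, with a median of -0.05. Between the median and the upper quartile it was 10 of 19 members, with a median of -0.08 against -0.03. Between the lower quartile and the median it was 2 of 4, with 0.12 against 0.09, and below the lower quartile 5 of 9, with -0.17 against 0.11. These are counts without a test.

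miR-681, whose gene lies within the kinase gene Cdkl1, had the largest difference. In wild type clones 1 and 2 it was at 8.93 and 9.32, and in the Junb-/- pair at 7.67 and 8.05. Both Junb-/- clones were lower, by more than the clones of either genotype differed from each other, and so were all 7 measured spots. The log2 fold change was -1.26 (standard error 0.36, 95% interval -2.04 to -0.49, unadjusted p = 0.00363, adjusted p = 0.149 from limma). With any clone left out it stayed between -1.46 and -1.07. Over all alternatives the adjusted p ran from 0.0167 to 0.882, and it was under the threshold with cyclic loess (0.0167) and with the clone number as a block (0.0466) only.

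miR-713 followed. It was at 9.53 and 9.83 in wild type and at 8.06 and 9.002 in Junb-/- MEFs. All 6 measured spots were lower in Junb-/- MEFs, and Junb-/- clone 1 was the lowest of the 4 clones. The log2 fold change was -1.15 (standard error 0.39, 95% interval -1.996 to -0.30, adjusted p = 0.237 from limma), which became -0.68 when Junb-/- clone 1 was left out and -1.62 when clone 2 was. miR-687, within Rb1, was at 7.92 and 8.90 in wild type and at 6.66 and 8.03 in Junb-/- MEFs. Its clone numbered 2 was the higher one in both genotypes, as also for miR-681, miR-713, miR-682 and miR-702. For miR-687, Junb-/- clone 2 lay above wild type clone 1, so the genotypes overlapped. The difference of -1.07 on the log2 scale (standard error 0.47, limma adjusted p = 0.444) was -0.38 when Junb-/- clone 1 was left out and -1.75 when clone 2 was. Without wild type clone 2 it was -0.58. With cyclic loess the adjusted p from limma was 0.0430.

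miR-719 and miR-682 completed the 5 members furthest below 0. miR-719 was at 8.30 and 8.83 in wild type and at 7.76 in both Junb-/- clones, a difference of -0.80 (log2, 95% interval -1.58 to -0.03, adjusted p = 0.448 from limma). miR-682 was at 8.23 and 8.82 in wild type and at 7.50 and 8.02 in Junb-/- MEFs, a difference of -0.77 (log2, 95% interval -1.58 to 0.04, adjusted p = 0.490 from limma). In both, the Junb-/- clones lay below the wild type clones without overlap. Without wild type clone 2 the log2 fold changes were -0.54 and -0.47.

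Above 0 the largest difference was that of miR-702, a mirtron, which is spliced out as a short intron and so needs no Drosha. Its spots had a median intensity of 26.4 and 132.0 in wild type, against 154.2 and 630.3 in Junb-/- MEFs. The level was 6.89 and 7.17 in wild type, against 7.54 and 8.60 in Junb-/- MEFs. Both Junb-/- clones were higher, and so were all 7 spots with a value in both genotypes. The log2 fold change was 1.04 (standard error 0.40, 95% interval 0.17 to 1.91, unadjusted p = 0.0221, adjusted p = 0.326 from limma), and it became 0.51 when Junb-/- clone 2 was left out and 1.57 when clone 1 was. The other members of this end were miR-695, at 6.59 and 6.09 in wild type, against 6.87 and 6.79 in Junb-/- MEFs, and miR-685, at 6.66 and 6.67 in wild type, against 6.90 and 7.09 in Junb-/- MEFs, beside miR-712 and miR-705 above. In both, the Junb-/- clones were the higher ones without overlap. With the values normalized by the authors those of miR-685 overlapped, at 6.12 and 6.62 in wild type, against 6.40 and 7.65. By single spots, miR-695 was higher in 4 and lower in 3, and miR-685 higher in 4 and lower in 4. The log2 fold changes of miR-695 and miR-685 were 0.49 and 0.33 (adjusted p = 0.738 and 0.837 from limma). That of miR-695 was 0.23 without wild type clone 2.

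Most other members lay near 0. In all, 30 of 41 (73.2%) had a log2 fold change under 0.5 in size and 4 (9.76%) one over 1, beside 73.8% and 6.90% of all miRNAs. The intervals show how much of a difference these arrays can miss on the log2 scale with the offset added. For 11 of the 41 members the 95% interval lay wholly within -1 and 1. For the other 30 it reached past a log2 value of 1 in at least 1 direction. The 11 include miR-708 and miR-697, with median spot intensities of 12 to 19.1 and 9.3 to 22.9, below the offset on every array. For such dim members the interval does not bound the change in intensity itself, since the offset makes fold changes smaller. The standard error had a median of 0.37 in the members and of 0.37 over all miRNAs. In size, the log2 fold changes had a median of 0.32 in the members and 0.30 over all miRNAs, the differences between the wild type clones 0.40 and 0.43, and those between the Junb-/- clones 0.38 and 0.34. A fold change is a difference of means of 2 clones and a clone difference one of single clones, so these sizes are not on an equal footing.

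The spots of a single array spread widely for most members. The SD of the normalized log2 value over the spots of an array, averaged over the 4 arrays, had a median of 0.98 (range 0.21 to 1.53) in the members and of 0.88 over all miRNAs, and 28 of 41 lay above the latter. The spread differed with the level, and was largest between the median and the upper quartile of level, where 19 members lay. There the medians of members and others were 1.11 and 1.03. They were 0.78 and 0.72 below the lower quartile, 0.93 and 0.92 between it and the median, and 0.75 and 0.71 above the upper quartile. Relative to the mean intensity the spread was 105% in the members and 107% over all miRNAs (median coefficient of variation). Spots are technical repeats on 1 array and not replicates of a clone.

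**Figure D4:**
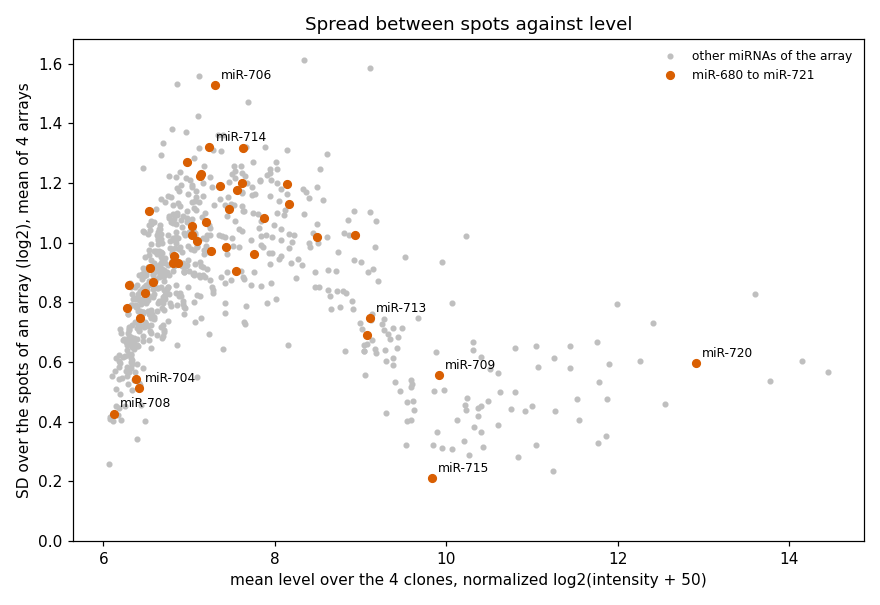
SD over the spots of an array in log2 units, averaged over the 4 arrays (y axis), against the mean level over the 4 clones (x axis, normalized log2(intensity + 50)) for the 41 members (orange) and the 669 other miRNAs (grey). miR-715 has the smallest spread of the array, 0.21, and miR-706 the largest of the members, 1.53.

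miR-715 had the tightest spots of all 710 miRNAs, with an SD of 0.16 and 0.25 in wild type, against 0.16 and 0.27 in Junb-/- MEFs. Its single spots ran from 660.0 to 1043 in wild type clone 1 and from 580.8 to 932.0 in Junb-/- clone 1. Among the members, the next smallest spreads were those of miR-708, miR-704 and miR-693-5p, at 0.43, 0.51 and 0.54, and these 3 are among the 5 dimmest members, close to the floor set by the offset. miR-720 had a spread of 0.60. At the other end stood miR-706, miR-714, miR-691 and miR-688, at 1.53, 1.32, 1.32 and 1.27. Only 4 of the 710 miRNAs spread more than miR-706, the member with the letters of the B1 repeat. In the order wild type clone 1, wild type clone 2, Junb-/- clone 1, Junb-/- clone 2, a single one of its spots gave 1401, 1039, 320.0 and 8399.5, while the median over its spots was 27.2, 105.2, 46.4 and 37.0. miR-688 rested on 4 or 5 spots with a value, the fewest of all members.

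**Figure D5:**
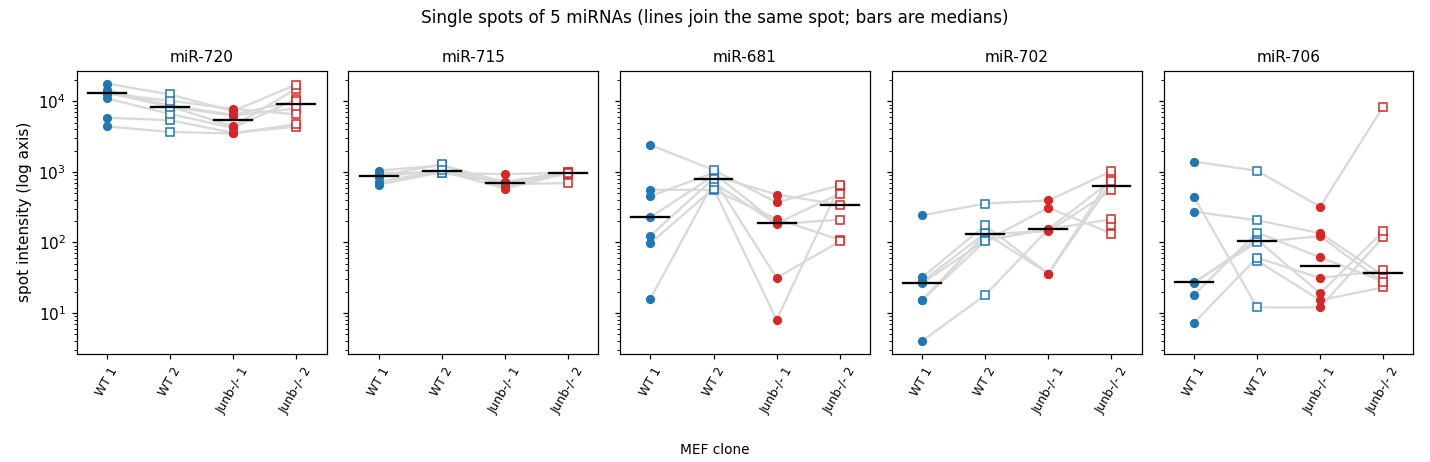
Intensity of each spot (y axis, log axis) of miR-720, miR-715, miR-681, miR-702 and miR-706 in the 4 MEF clones (x axis), with wild type in blue and Junb-/- in red. Grey lines join the same spot across arrays and black bars are the medians over spots. The spots of miR-715 stay between 580.8 and 1284 on all arrays, whereas a single spot of miR-706 reaches 8399.5 with a median of 37.0 on the same array.

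A spot that was bright on one array tended to be bright on the others. Deviations of single spots from the mean of their miRNA correlated between arrays with r = 0.36 to 0.55 over 299 member spots and with r = 0.30 to 0.42 over all 5167 spots measured on every array. These points share their position on the array and their probe. For single members the mean correlation between arrays over the spots had a median of 0.47 (range -0.12 to 0.83), beside 0.36 over all 710 miRNAs. Among members it was highest for miR-709 (0.83), miR-696 (0.76), miR-720 (0.74) and miR-706 (0.71). It was 0.07 for miR-715, whose spots hardly differed. It was as low for miR-683 (0.07) and miR-685 (0.06), whose spot spreads were 0.93 and 0.96. Part of the spot spread of the members was therefore shared by the arrays.

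Sequence features were set beside the level and the spot spread. Over the 26 members with a sequence, the Spearman correlation with the mean level was -0.02 for GC content, 0.13 for the share of G and 0.19 for the longest run of G, and over the 198 array miRNAs with a sequence it was 0.22, 0.01 and -0.10. With the spot spread, GC content correlated at -0.42 in the members and at 0.08 over the 198, and length at 0.47 and -0.09. The folding energy per base of the hairpin correlated at 0.22 with the level over 28 members and at -0.05 over 415 miRNAs with a hairpin, and with the spot spread at 0.36 and 0.05. The points share the same 4 arrays and the chemistry of their probes, and these values are descriptions only. Single members went both ways. miR-713, the brightest member with an assigned sequence, had the lowest share of its mature strand paired with 1 side. miR-686, with a share of 27.3%, was at a level of only 6.87, below the array median of 6.96. Of the well folded hairpin of miR-693, miR-693-5p was among the 5 dimmest, while miR-693-3p was at 7.37, above that median.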

How the data were processed

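Total RNA of each MEF clone (2 wild type, 2 Junb-/-) was hybridised to 1 single-colour Febit array, on which bound miRNAs were labelled by primer extension. Each spot has 1 linear intensity as deposited, with no background, flag or control values. Image analysis and background handling: not given in the sources used here. Intensities were never negative and were taken as already background-corrected. Spots without a value were left out. The authors also deposited 1 normalized log2 value per miRNA and array, used as an alternative only. Its order follows the median over spots, and how it was normalized was likewise not given there.

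For the main values, 50 was added to each intensity as an offset. The log2 of the sum was brought to 1 distribution over the 4 arrays by quantile normalization, and the spots of a miRNA were then averaged. All 710 miRNAs entered limma 3.58.1 (R 4.3.3) with the contrast Junb-/- minus wild type. Tests were two-sided, with Benjamini-Hochberg adjustment over all miRNAs, at a threshold of 0.05. limma's prior counted for 11.8 degrees of freedom and the clones for 2. The design asked for a normexp correction only where a background value is given, and none is. Fold changes of dim miRNAs are understated, since they are on the scale of log2(intensity + 50). The limma step was tested on simulated miRNA means with planted differences larger than any seen in the members. Recovery of smaller differences was not tested. The quantile step was tested on spot values shifted by known amounts. The averaging of spots and the floor were not simulated. Hairpins were folded with RNAfold 2.7.2 at default settings. Figures were made in Python 3.11.15 (matplotlib 3.10.9).

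The members and lists were chosen with earlier results of these data known. Named members are the 5 with the largest log2 fold change in each direction, the 5 brightest and 5 dimmest, the 4 with the largest and the 4 with the smallest spot spread, both arms of miR-693 and those with a known origin or role. Others named for their sequence, hairpin or gene were chosen after their values were seen. Alternatives were other offsets, floors and normalizations, the median over spots, the authors' values, trend and robust settings, a filter on dim miRNAs, spots measured on all arrays, each clone left out after normalization and a block for the clone number. Arrays number 4, which limits the precision.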

Additional observations from a re-analysis of the deposited data

How the results depend on the processing

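With 2 clones per genotype, calls hung on the setting. Of the 710 miRNAs, 10 passed the threshold, 0 passed without the offset, without normalization and with the median over spots, 4 with a floor of 16 in place of the offset and with the values normalized by the authors, 17 with trend and robust settings, 29 with cyclic loess and 0 to 11 with a clone left out, the 0 being without either wild type clone. No member passed, except miR-681 and miR-687 with cyclic loess (2 members) and miR-681 with the clone number as a replicate block (1 member, among 16 miRNAs). Members with an unadjusted p under 0.05 numbered 5, and 1 without the offset, 3 with that floor and also with 75th percentile scaling, 9 with cyclic loess, 0 without normalization, 2 with the authors' values (both higher in Junb-/- MEFs), 8 with the replicate block and 2 to 6 with a clone left out. The study speaks of clone pairs, but the sources used here give no litter, batch or day that same-numbered clones share. Their deviations from the group means correlated at 0.31, over 2 pairs only, and no pairing was used in the main test.

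The median log2 fold change of the members, -0.18, was -0.27 with an offset of 16, -0.32 without the offset, -0.48 with 75th percentile scaling, -0.41 with median scaling, -0.25 with cyclic loess, -0.050 without normalization, -0.28 over miRNAs above the median level and -0.27 to -0.075 (without wild type clone 1) with a clone left out. Their median level above that of all miRNAs, 0.28, was 0.38 without the offset, 0.37 with the floor of 16, 0.19 with cyclic loess, 0.47 with the authors' values and 0.16 to 0.29 with a clone left out. The excess in spot spread, 0.11, was 0.14 with an offset of 16 and 0.15 with the floor of 16. The cause of these shifts was not tested. The 10 named members with the largest differences kept their direction under every alternative that gave a value. For members near the floor, such as miR-708, the offset limits how large a drop can appear.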
